A study of Homo sapiens with 8 samples.

Results

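The Notch ligands DLL1, DLL3, DLL4, JAG1 and JAG2, the receptors NOTCH1, NOTCH2 and NOTCH3, and the basic helix-loop-helix factors HES1 and HES6 were measured by RNA sequencing. They are 10 of the 78691 genes in the count table, were taken by gene name, and each name had a single row. The libraries came from C4-2B, a prostate adenocarcinoma line, and NCI-H660, a neuroendocrine prostate cancer line, with 2 libraries in each of 4 groups. C4-2B control cells carried an empty lentiviral vector, and C4-2B MYCL cells carried a lentivirus in which the constitutive EF1A promoter drives human MYCL joined to EGFP. NCI-H660 shCtrl cells received a non-targeting shRNA, and NCI-H660 shMYCL cells received shRNAs against MYCL from an adenoviral vector. The series' design text gives that adenoviral vector, while the treatment protocol speaks of knockdown that had become stable. Every group had therefore been through viral transduction, and each line stands for a single tumor. Titles name biological replicates for the C4-2B control libraries and replicates for the others, and p-values measure the spread between these libraries.

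Notch receptors on a cell are activated by ligands on its neighbors, then cleaved by ADAM proteases and γ-secretase, and the released intracellular domain joins RBPJ in the nucleus to switch on genes such as HES1. HES1 represses proneural factors, so active Notch signaling usually restrains neural and neuroendocrine differentiation. DLL3 is an atypical ligand that mostly stays inside the cell and inhibits Notch in the cell that makes it, and it is a surface target in neuroendocrine tumors. HES6 lacks the usual repressor activity of its family and can oppose HES1.

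Library totals ranged from 15177071 to 32344170 counts, and mitochondrial genes took 9.63% to 10.7% of counts in C4-2B and 3.50% to 3.83% in NCI-H660. MYCL, the manipulated gene, had 12.1 and 14.2 CPM (counts scaled to a common library size, TMM-normalized) in C4-2B control and 3733 and 4242 in C4-2B MYCL. In NCI-H660 it had 104 and 81.8 CPM in shCtrl and 10.3 and 12.0 in shMYCL, so both manipulations moved MYCL as labelled. The knockdown left MYCL close to its level in C4-2B control. Summed over 4 adenocarcinoma markers (KLK3, KLK2, FOLH1, TMPRSS2), TPM (a level per gene length with a common library sum) was 1843 to 1858 in C4-2B control and 1.09 to 1.11 in NCI-H660 shCtrl. Summed over 5 neuroendocrine markers (INSM1, CHGA, CHGB, SYP, NCAM1), it was 0.756 to 1.07 and 404.6 to 405.6, so each line carried the markers of its label. A change in these bulk samples can come from fewer cells that express a gene or from less RNA per cell, which cannot be told apart.

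Upstream sequences are printed here for the members called in both lines (HES1 and NOTCH3), the ligand called in C4-2B (JAG1) and HES6. Their Notch and basic helix-loop-helix motifs can thus be compared. Each is the 250 bases before the RefSeq start on GRCh38.p14, read 5′ to 3′ on the gene's strand. Capitals mark TGGGAA, the core of the RBPJ site, or CAGCTG, an E-box. The windows are chr3:194135898-194136147 (plus strand) for HES1, chr19:15200996-15201245 (minus) for NOTCH3, chr20:10674000-10674249 (minus) for JAG1 and chr2:238240039-238240288 (minus) for HES6.
HES1: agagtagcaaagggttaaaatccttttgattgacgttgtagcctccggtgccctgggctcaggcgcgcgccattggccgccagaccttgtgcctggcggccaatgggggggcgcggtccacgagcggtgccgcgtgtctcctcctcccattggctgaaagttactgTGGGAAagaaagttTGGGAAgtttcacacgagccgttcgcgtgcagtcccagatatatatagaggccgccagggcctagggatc
NOTCH3: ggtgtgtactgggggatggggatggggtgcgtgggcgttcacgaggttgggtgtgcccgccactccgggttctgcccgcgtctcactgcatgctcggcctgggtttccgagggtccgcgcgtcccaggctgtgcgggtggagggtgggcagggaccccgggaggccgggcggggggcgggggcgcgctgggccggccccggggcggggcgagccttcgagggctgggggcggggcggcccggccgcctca
JAG1: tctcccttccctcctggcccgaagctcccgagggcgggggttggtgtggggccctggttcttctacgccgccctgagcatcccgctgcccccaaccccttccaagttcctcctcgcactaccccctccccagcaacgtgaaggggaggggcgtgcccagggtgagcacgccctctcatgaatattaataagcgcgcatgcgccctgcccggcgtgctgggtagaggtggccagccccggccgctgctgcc
HES6: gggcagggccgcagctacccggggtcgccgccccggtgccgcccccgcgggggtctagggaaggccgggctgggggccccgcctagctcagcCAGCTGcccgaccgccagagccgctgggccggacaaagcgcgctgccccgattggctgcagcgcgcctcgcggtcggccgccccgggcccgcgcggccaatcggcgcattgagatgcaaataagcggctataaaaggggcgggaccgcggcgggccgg

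HES1 held 2 TGGGAA cores, at 84 to 79 and 70 to 65 bases before its start, and HES6 held 1 CAGCTG at 158 to 153 bases before its start. Sequences were given for 8 of the 10 members, and DLL1 and DLL3 were without one. Searched on both strands in windows of the same length, TGGGAA was in 20.8% of 35116 RefSeq promoters and, among the 8 members, in HES1. CAGCTG was in 14% of promoters and, among the members, in HES6. CACGTG, the E-box best known for MYC family proteins, was in 6.34% of promoters and in 0 of the 8 members' windows. The 3 motifs do not overlap one another in these windows. The HES6 window lies inside the longer gene span that GENCODE 44 gives it.

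Levels were first compared between genes within a library, on the TPM scale. In all 4 groups HES6 had the highest mean TPM of the 10 genes and DLL4 the lowest. In C4-2B control, mean TPM was 38.9 for HES6, 13.3 for HES1, 12.3 for JAG2, 9.65 for NOTCH2 and 5.97 for DLL3. Below them stood JAG1 at 4.04 TPM, NOTCH3 at 2.88, NOTCH1 at 2.77, DLL1 at 0.245 and DLL4 at 0.042. JAG2 was thus the leading ligand transcript of C4-2B, and DLL1 was near the bottom of the order. In NCI-H660 shCtrl the order began with HES6 at 113 TPM, DLL1 at 55.1, HES1 at 42.1, JAG2 at 29.8 and DLL3 at 22.7. NOTCH2 at 7.73 TPM, NOTCH3 at 6.37, NOTCH1 at 5.17, JAG1 at 2.47 and DLL4 at 1.72 followed. DLL1, ninth in C4-2B control, was second in NCI-H660, ahead of DLL3.

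**Figure D1:**
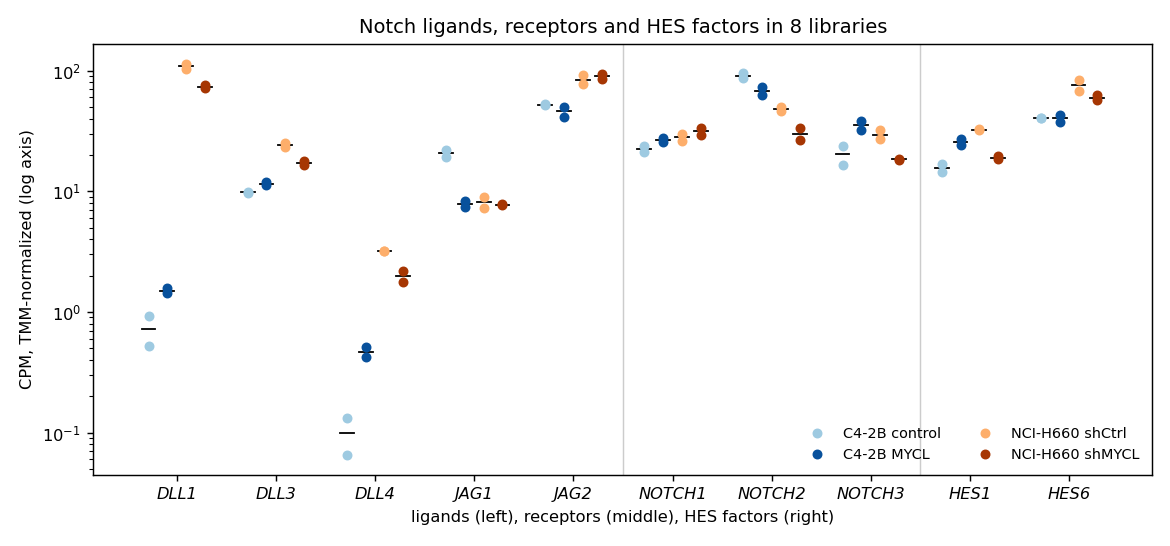
TMM-normalized CPM (vertical log axis) of the 10 genes in each library; colored points are the 2 libraries of a group and black lines the group means. DLL1 spans from 0.520 CPM in a C4-2B control library to 114 CPM in an NCI-H660 shCtrl library, while NOTCH1 stays between 21.3 and 33.5 CPM in all 8.

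The ligand pool differed in make-up between the lines. Summed over the 5 ligands, TPM was 22.7 and 22.5 in C4-2B control, 19.9 and 17.0 in C4-2B MYCL, 108 and 115 in NCI-H660 shCtrl and 90.8 and 85.8 in shMYCL. Summed CPM was 83.39 and 83.44 in C4-2B control, 71.7 and 62.8 in C4-2B MYCL, 215 and 243 in shCtrl and 196 and 183 in shMYCL. The groups did not overlap on either scale, and the gap between the lines was smaller on CPM. The shares below are of TPM. JAG2 made up 54.4% ± 0.0793 (SD, n = 2) of this sum in C4-2B control and 26.6% ± 0.543 in NCI-H660 shCtrl. DLL1 made up 1.08% ± 0.462 and 49.3% ± 0.0259. The JAG1 share was 17.9% ± 1.30 in C4-2B control, 7.60% ± 0.128 in C4-2B MYCL, 2.21% ± 0.110 in shCtrl and 2.74% ± 0.172 in shMYCL. With MYCL overexpression the DLL3 share was 34.7% ± 2.99 against 26.4% ± 0.820 in control, without overlap, and the JAG2 share had the same mean of 54.4% in both. A share also depends on the other ligands. DLL3 itself had a mean of 5.97 TPM in control and 6.38 with MYCL, while JAG1 had 4.04 and 1.405. After knockdown the DLL1 share was 41.8% ± 0.446 and the JAG2 share 36.0% ± 0.994. With 2 libraries per group the smallest exact permutation p is 0.33, so no test was made on shares.

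**Figure D2:**
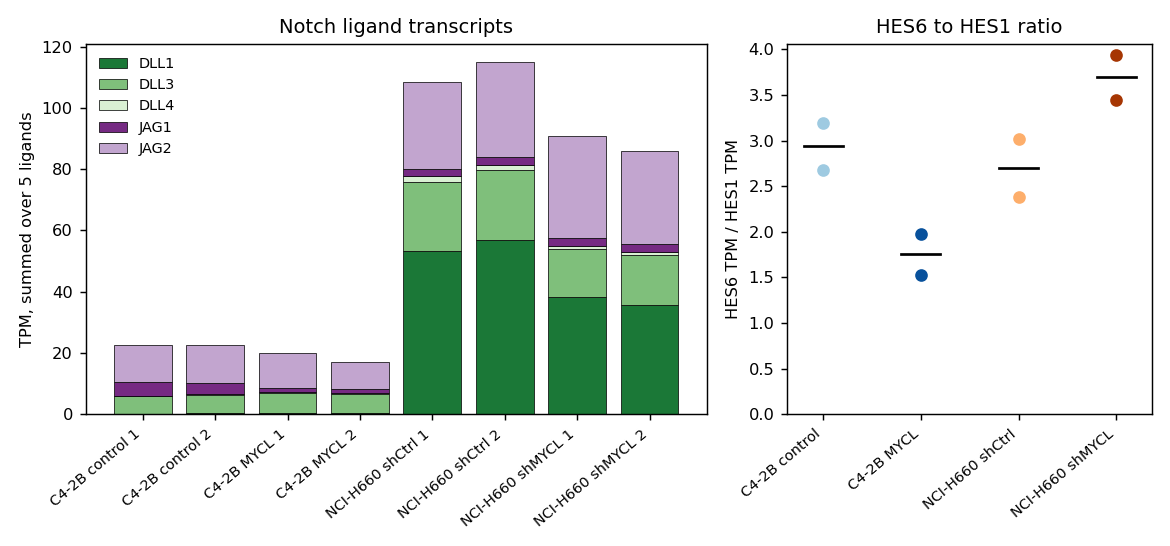
Left, stacked bars of TPM for the 5 Notch ligands in each of the 8 libraries, from 0; right, the ratio of HES6 to HES1 TPM per library (points) with group means (lines). NCI-H660 libraries sum to 85.8 to 115 TPM against 17.0 to 22.7 in C4-2B (183 to 243 against 62.8 to 83.4 on CPM), and the HES6 to HES1 ratio runs from 1.53 to 3.94.

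The HES6 to HES1 ratio, on the TPM scale, was lower with more MYCL in both lines. It was 3.20 and 2.68 in C4-2B control and 1.53 and 1.98 in C4-2B MYCL. In NCI-H660 it was 2.38 and 3.02 in shCtrl and 3.45 and 3.94 in shMYCL. Within each line the libraries with more MYCL had the lower ratio, without overlap. In C4-2B this restates the higher HES1, since the log2 fold change of HES6 was -0.0089. After knockdown both genes were lower, at -0.76 for HES1 and -0.34 for HES6. The share of all gene pairs that separate so was not counted. The ratio was 2.94 ± 0.368 in C4-2B control and 2.70 ± 0.455 in NCI-H660 shCtrl (SD, n = 2), whose libraries overlapped, although both genes were higher in NCI-H660.

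MYCL overexpression in C4-2B addressed what MYCL changes in an adenocarcinoma line. A gene was called where edgeR's quasi-likelihood test gave a Benjamini-Hochberg adjusted p below 0.05 and the log2 fold change reached 0.5 in size, and rose or fell are used for called genes. Of the 10 genes, 9 passed the filter on low counts, and NOTCH3 and HES1 rose while JAG1 fell. Among all 16866 genes tested, 11.8% were called higher and 8.12% lower, so 2 higher and 1 lower of 9 is near the background. The members' median log2 fold change was 0.24 against -0.0017 over all genes. The 4 adenocarcinoma markers summed to 1843 to 1858 TPM in control and 1230 to 1331 TPM in C4-2B MYCL, and the 5 neuroendocrine markers to 0.756 to 1.07 and 0.598 to 1.07 TPM. Of the 4 adenocarcinoma markers KLK3 fell at -0.52 (edgeR adjusted p = 5.58e-04). KLK2 at -0.24 and FOLH1 at -0.28 were under the minimum, and TMPRSS2 went the other way at 0.39 (edgeR adjusted p = 0.00346), not called. On log2(TPM + 1) the median change of all genes at 1 TPM or more in 2 libraries was itself -0.14. The part of these shifts in the results below was not tested.

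JAG1 (chr20:10637684-10673999, minus strand), a Jagged-family ligand that activates Notch receptors, had 21.8 and 19.4 CPM in C4-2B control and 8.26 and 7.43 in C4-2B MYCL. Both MYCL libraries were far below both controls. The log2 fold change was -1.38 ± 0.13 (SE; edgeR adjusted p = 1.32e-04), or 2.61-fold lower. It stayed called in every one of 15 alternatives, from -1.47 to -0.92. JAG2 (chr14:105140982-105168824, minus strand), its relative, had 51.3 and 53.1 CPM in control and 50.3 and 41.5 with MYCL. Its log2 fold change was -0.18 ± 0.10 (edgeR adjusted p = 0.212), which misses the threshold.

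The Delta-like ligands were not called in C4-2B. DLL1 (chr6:170282206-170306565, minus strand), a canonical activating ligand, had 16 and 21 counts in control and 25 and 26 with MYCL, or 0.520 and 0.933 against 1.42 and 1.57 CPM. Both MYCL libraries were higher, and the log2 fold change was 1.07 ± 0.47 (edgeR adjusted p = 0.107). Without C4-2B control replicate 1 it was 0.68, and in a fit of all 4 groups, which shares the spread, it was 1.09 with adjusted p = 0.0177. DLL3 (chr19:39498895-39508481, plus strand) had 9.72 and 9.90 CPM in control and 11.2 and 11.8 with MYCL. The libraries did not overlap, and the log2 fold change was 0.24 ± 0.14 (edgeR adjusted p = 0.207). DLL4 (chr15:40929340-40939073, plus strand), best known from blood vessels, had 2 and 3 counts in control and 9 and 7 with MYCL and was not tested. Normalized for depth, the ratio of its counts was 5.00 (95% exact interval 1.75 to 17.4, counting error only). In the fit of all 4 groups, where its counts in NCI-H660 let it pass the filter, DLL4 was at 2.23 ± 0.63 (edgeR adjusted p = 0.0178), so that fit called 4 members higher (NOTCH3, HES1, DLL1 and DLL4). DLL4 entered that fit only through NCI-H660, and at 2 to 9 counts in C4-2B its call is not taken as a response to MYCL.

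Among receptors, NOTCH3 (chr19:15159038-15200995, minus strand) had 16.6 and 23.8 CPM in C4-2B control and 38.0 and 32.4 in C4-2B MYCL. Both MYCL libraries were above both controls, and the controls differed from each other more than those of most members. The log2 fold change was 0.82 ± 0.16 (edgeR adjusted p = 0.00465). On log2(TPM + 1) in limma it was 0.54 with adjusted p = 0.0665. NOTCH1 (chr9:136494433-136546048, minus strand) had 21.3 and 23.5 against 25.7 and 27.6 CPM, a log2 fold change of 0.26 ± 0.10 (edgeR adjusted p = 0.0789). NOTCH1 was the receptor with the smallest difference.

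NOTCH2 (chr1:119911553-120100779, minus strand) had 86.9 and 94.7 CPM in control and 72.3 and 62.4 with MYCL. Its log2 fold change was -0.42 ± 0.093 (edgeR adjusted p = 0.00766), under the minimum of 0.5. Without C4-2B MYCL replicate 1 it was -0.53 and called. The NOTCH2NL genes are near-identical partial copies, so reads may be split among them. The most abundant, NOTCH2NLA, had 23.8 and 20.2 CPM in control and 32.6 and 31.8 with MYCL, opposite in direction to NOTCH2. With NOTCH2 and NOTCH2NL counts summed, the log2 fold change was -0.089 (edgeR adjusted p = 0.470), so the NOTCH2 difference in C4-2B is uncertain.

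HES1 (chr3:194136148-194138732, plus strand), the direct Notch target with the pair of RBPJ cores printed above, had 14.4 and 16.7 CPM in control and 27.3 and 24.3 with MYCL. Both MYCL libraries were higher, with a log2 fold change of 0.74 ± 0.12 (edgeR adjusted p = 0.00163). HES6 (chr2:238238267-238240662, minus strand) had 40.7 and 40.3 CPM in control and 37.5 and 42.7 with MYCL. Its groups overlapped, and the log2 fold change was -0.0089 ± 0.091 (edgeR adjusted p = 0.952).

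**Figure D3:**
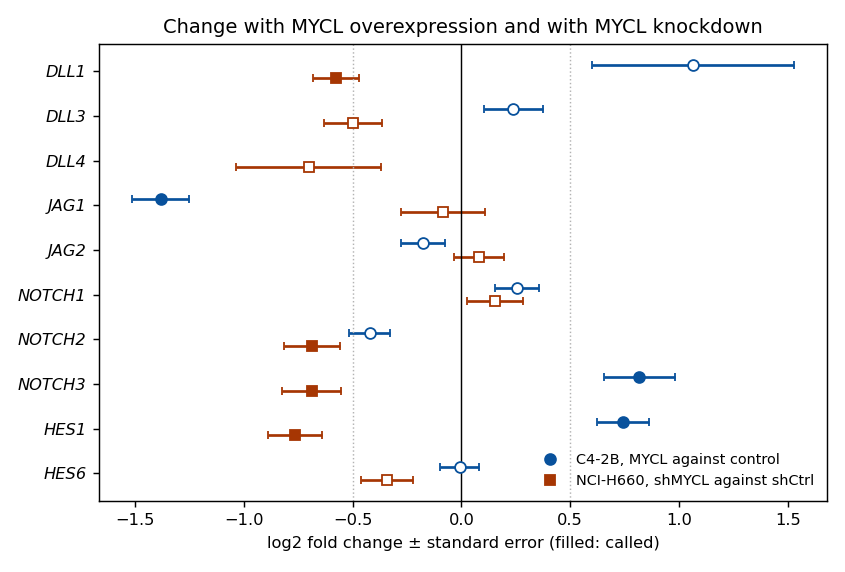
Log2 fold change (horizontal axis) with its standard error for each gene in C4-2B with MYCL (blue circles) and NCI-H660 with shMYCL (brown squares); filled markers are called and dotted lines mark 0.5 and -0.5. NOTCH3 and HES1 lie right of 0 with MYCL (0.82 and 0.74) and left of 0 with shMYCL (-0.69 and -0.76), while JAG1 is at -1.38 and -0.085; DLL4 was not tested in C4-2B.

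Knockdown in NCI-H660 addressed what depends on MYCL in the neuroendocrine line. All 10 genes were tested, and DLL1, NOTCH2, NOTCH3 and HES1 fell, while 0 rose in edgeR. At an unadjusted p under 0.05 and the same minimum fold change, and in DESeq2 and limma, 0 rose as well. Limma on log2(TPM + 1) called 2 members lower. Without its filter on low TPM it called 0 members lower and 1 gene in all. In edgeR, of all 16980 genes tested, 8.99% were called lower and 7.18% higher, against 4 of 10 members lower. The members' median log2 fold change was -0.54 and that of all genes -0.0029. The 5 neuroendocrine markers summed to 404.6 to 405.6 TPM in shCtrl and 399.9 to 463.1 TPM in shMYCL, so the groups overlapped, and the 4 adenocarcinoma markers to 1.09 to 1.11 and 0.113 to 0.609 TPM. KLK3, KLK2 and FOLH1 were at 0 counts in every NCI-H660 library. Of the 5 neuroendocrine markers, INSM1 fell at -0.65 (edgeR adjusted p = 7.72e-04), and the other 4 were not called, at 0.44 for CHGB (adjusted p = 0.0105), 0.18 for SYP, -0.11 for CHGA and -0.22 for NCAM1. Their part in the results was not tested.

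DLL1, the most abundant ligand transcript of NCI-H660, had 104 and 114 CPM in shCtrl and 75.4 and 71.2 in shMYCL. Both knockdown libraries were lower, with a log2 fold change of -0.58 ± 0.11 (edgeR adjusted p = 0.00111). In GENCODE 44, 9.69% of its exon bases overlap FAM120B on the other strand, and the strand setting of the counting is not given in the sources used here. DLL3 had 23.1 and 25.3 CPM in shCtrl and 16.6 and 17.7 in shMYCL. The libraries did not overlap, and its log2 fold change of -0.498 ± 0.13 (edgeR adjusted p = 0.0122) lay just under the minimum of 0.5 in size, so it was not called. Without shCtrl replicate 1 it was -0.56 and called.

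The other ligands were not called after knockdown. DLL4 had 57 and 63 counts in shCtrl and 35 and 29 in shMYCL, with a log2 fold change of -0.70 ± 0.33 (edgeR adjusted p = 0.138). JAG1 had 7.33 and 9.04 CPM in shCtrl and 7.67 and 7.81 in shMYCL, so the groups overlapped, with a log2 fold change of -0.085 ± 0.19 (edgeR adjusted p = 0.789). JAG2 had 77.3 and 91.1 against 93.8 and 84.9 CPM, also overlapping, at 0.081 ± 0.11 (edgeR adjusted p = 0.649). In GENCODE 44, 3.29% of JAG1 exon bases overlap another gene on the other strand and 7.33% of JAG2 exon bases overlap one on the same strand. DLL1 was thus the only ligand called. DLL3 and DLL4 were also lower in both knockdown libraries, without a call, and the Jagged ligands overlapped. How many of all genes separate in this way was not counted, so no contrast between the ligand families is drawn.

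NOTCH3 had 27.0 and 32.01 CPM in shCtrl and 18.2 and 18.5 in shMYCL, a log2 fold change of -0.69 ± 0.13 (edgeR adjusted p = 0.00161). NOTCH2 had 50.3 and 46.0 CPM in shCtrl and 33.1 and 26.8 in shMYCL, also -0.69 ± 0.13 (edgeR adjusted p = 0.00126). In both receptors the knockdown libraries lay below shCtrl without overlap. NOTCH2NLA went from 9.68 and 10.98 CPM to 5.99 and 4.42, in the same direction as NOTCH2, and with the copies summed the log2 fold change was -0.82 (edgeR adjusted p = 1.44e-04). On log2(TPM + 1) in limma, NOTCH2 had adjusted p = 0.0543 and NOTCH3 adjusted p = 0.0693. NOTCH1 had 26.3 and 29.8 CPM in shCtrl and 33.5 and 29.1 in shMYCL, with overlap, at 0.15 ± 0.13 (edgeR adjusted p = 0.418).

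HES1 had 32.5 and 31.9 CPM in shCtrl and 19.4 and 18.6 in shMYCL. The knockdown libraries were lower with a narrow spread, and the log2 fold change was -0.76 ± 0.12 (edgeR adjusted p = 4.22e-04). HES6 had 67.9 and 83.1 CPM in shCtrl and 56.6 and 62.7 in shMYCL. Its libraries did not overlap, and at -0.34 ± 0.12 (edgeR adjusted p = 0.0462) it was under the minimum fold change. NEUROG3, a proneural factor, had 121 and 79 counts in shCtrl and 21 and 31 in shMYCL, at -1.75 ± 0.34 (edgeR adjusted p = 0.00156). Of 5 proneural factors, NEUROG3 was the 1 that passed the filter in NCI-H660, and 0 passed in C4-2B.

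The effect of more against less MYCL was then compared between the lines with an interaction term, fitted over the 4 groups together. A value is the log2 effect in C4-2B (MYCL minus control) minus that in NCI-H660 (shCtrl minus shMYCL). MYCL itself changed by a log2 fold change of 8.26 with overexpression in C4-2B and -3.06 with knockdown in NCI-H660. Line, vector, direction and size of the MYCL change thus differ together and cannot be told apart. JAG1 and NOTCH2 were called, beside 17.9% of all 19605 genes called in either direction. JAG1 was at -1.47 ± 0.23 (edgeR adjusted p = 8.48e-04), since it fell with MYCL in C4-2B and was at -0.085 after knockdown. NOTCH2 was at -1.11 ± 0.17 (edgeR adjusted p = 5.81e-04), with log2 fold changes of -0.42 with MYCL in C4-2B and -0.69 with shMYCL in NCI-H660. With the NOTCH2NL copies summed it was -0.91 (edgeR adjusted p = 0.00108). Both were called in every alternative run for this comparison, and HES6 joined them at -0.50 without NCI-H660 shCtrl replicate 1.

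HES1 and NOTCH3 were the members called in both lines with the same sign of MYCL effect. The share of all genes called so in both lines was not counted, so this is not read as a trait of the members. Their differences between lines were -0.026 ± 0.17 (edgeR adjusted p = 0.995) and 0.12 ± 0.23 (adjusted p = 0.788), which miss the threshold without showing that the effects are equal. DLL1 was at 0.52 ± 0.32 (edgeR adjusted p = 0.294), ranging from 0.094 without C4-2B control replicate 1 to 0.95 without C4-2B control replicate 2. DLL3 was at -0.26 ± 0.18 (edgeR adjusted p = 0.352) and HES6 at -0.36 ± 0.16 (adjusted p = 0.145).

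The control libraries of the lines were compared for the starting state of the pathway. This comparison uses the same control libraries as the MYCL comparisons, and line, vector and shRNA differ together and cannot be told apart. In NCI-H660 shCtrl 7 of the 10 genes were called higher than in C4-2B control (DLL1, DLL3, DLL4, JAG2, NOTCH3, HES1, HES6) and 2 lower (JAG1, NOTCH2), with NOTCH1 in neither set. DLL4 passed the filter on low counts only through NCI-H660, so it could scarcely be called lower. Of all 19605 genes, 36.5% were called higher and 33.3% lower. The members' median log2 fold change was 0.80 and that of all genes 0.033.

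DLL1 differed most, at 104 and 114 CPM in NCI-H660 shCtrl against 0.520 and 0.933 in C4-2B control, a log2 fold change of 7.28 ± 0.17 (edgeR adjusted p = 4.32e-13). DLL4 counts were 57 and 63 against 2 and 3, a depth-normalized ratio of 34.1 (95% exact interval 14.2 to 107, counting error only). DLL3 was 2.47-fold higher, at 1.30 ± 0.13 on the log2 scale (edgeR adjusted p = 4.55e-07). All 3 Delta-like ligands were ordered from shCtrl through shMYCL and C4-2B MYCL down to C4-2B control, with no overlap between neighbors. The main fit of C4-2B called none of the 3. NOTCH2 and HES1 had other orders without overlap, and the share of all genes with such orders was not counted. JAG2 was higher by 0.69 ± 0.11 (log2; edgeR adjusted p = 7.15e-05). JAG1 was lower by a log2 fold change of -1.33 ± 0.16 (edgeR adjusted p = 3.53e-06), and its C4-2B control libraries stood above the other 3 groups, which overlapped.

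NOTCH2 was lower in NCI-H660 shCtrl at -0.92 ± 0.11 (edgeR adjusted p = 5.93e-06), and its order ran from C4-2B control through C4-2B MYCL and shCtrl to shMYCL without overlap. On log2(TPM + 1) it was -0.29 in limma and not called. In that setting, over the 17847 genes kept by its filter, the median of all genes was 0.53, against 0.033 in edgeR and 0.042 on log2(TPM + 1) with no filter. NOTCH3 was higher at 0.56 ± 0.16 (edgeR adjusted p = 0.00572). It was at 0.31 (adjusted p = 0.0996) without C4-2B control replicate 1 and at 0.44 (adjusted p = 0.0542) without shCtrl replicate 2. NOTCH1 differed by 0.33 ± 0.12 (edgeR adjusted p = 0.0219), under the minimum, and by -0.039 on TPM centred on each library's median. HES1 was higher by 1.05 ± 0.12 (edgeR adjusted p = 2.07e-06) and HES6 by 0.90 ± 0.11 (edgeR adjusted p = 6.32e-06).

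HES1 after knockdown (19.0 ± 0.574 CPM, SD, n = 2) lay between C4-2B control (15.6 ± 1.68) and C4-2B MYCL (25.8 ± 2.09), with no overlap. NOTCH3 after knockdown (18.3 ± 0.179 CPM) overlapped C4-2B control (20.2 ± 5.08), and C4-2B MYCL (35.2 ± 3.98) exceeded shCtrl (29.5 ± 3.56). From the highest to the lowest group mean, CPM spanned 150-fold for DLL1, 32.3-fold for DLL4, 3.03-fold for NOTCH2 and 1.40-fold for NOTCH1. The remaining 6 genes spanned 1.88-fold (HES6) to 2.66-fold (JAG1).

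The rest of the pathway was described with a list of 52 genes. In C4-2B, 42 were tested, 6 rose and 2 fell with MYCL, with a median log2 fold change of 0.058. With 11.8% of all genes called higher and 8.12% lower, these counts are near the background. Among the genes for ligand ubiquitination, which lets the sending cell pull on the receptor, NEURL1B was at 1.30 ± 0.11 and MIB2 at 0.82 ± 0.25. The corepressor TLE2 was at 1.42 ± 0.25, the HES1 relative HES4 at 0.97 ± 0.12, the ubiquitin ligase DTX4 at 0.94 ± 0.24 and the protease FURIN, which matures the receptors, at 0.60 ± 0.13. TLE1, a corepressor, was at -0.78 ± 0.16 and NRARP, a feedback inhibitor induced by Notch, at -0.51 ± 0.090. NRARP and HES1, both Notch targets, thus went in opposite directions. Without C4-2B MYCL replicate 2 the number that rose was 3, and without C4-2B control replicate 1 the number that fell was 1.

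In NCI-H660, 51 of the 52 were tested, 2 rose and 4 fell with knockdown, with a median of 0.036. With 7.18% of all genes called higher and 8.99% lower, these counts are not above the background. LFNG, which glycosylates the receptors and tunes their choice of ligand, had 71.1 and 82.9 CPM in shCtrl and 42.7 and 39.2 in shMYCL, at -0.92 ± 0.12 (edgeR adjusted p = 5.59e-05). ADAM10, the protease of the first cleavage, was at -0.66 ± 0.11, MIB1, the main ligand ubiquitin ligase, at -0.64 ± 0.11 and APH1B, a γ-secretase subunit, at -0.62 ± 0.17. HEY1, a Notch target related to HES1, had 10.3 and 11.7 CPM in shCtrl and 18.0 and 18.7 in shMYCL, at 0.74 ± 0.15 (edgeR adjusted p = 0.00211). HEY1 rose where HES1 fell. MIB2 was at 0.51 ± 0.15. Leaving out shCtrl replicate 2 gave 4 that rose, leaving out any other NCI-H660 library gave 1, and leaving out shCtrl replicate 1 gave 2 that fell.

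Between the control lines 30 of 51 pathway genes were called higher in NCI-H660 shCtrl and 5 lower, with a median of 0.66, beside 36.5% of all genes called higher and 33.3% lower. In C4-2B alone 42 of the list passed the filter on low counts. Those let in only through NCI-H660 (NOTCH4, DLK1, DNER, MFNG, DTX1, MAML2, TLE4, HEY2 and HEYL) could scarcely be called lower. All of them were called higher, so the filter raised the count of 30. By role, with lists of 4 to 9 genes to be read against the same shares, all 4 ubiquitin ligases of ligands were higher, from 0.88 (MIB1) to 3.91 (NEURL1B). The receptor glycosylation list had 2 of 5 higher, LFNG at 3.04 ± 0.12 and MFNG, and 1 lower. Of the 8 corepressors 5 were higher, TLE4 among them, and 0 lower, and RBPJ itself was at 0.52 ± 0.090. HEY1 was higher at 1.93 ± 0.19, while NRARP at -0.14 ± 0.13 was not called.

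**Figure D4:**
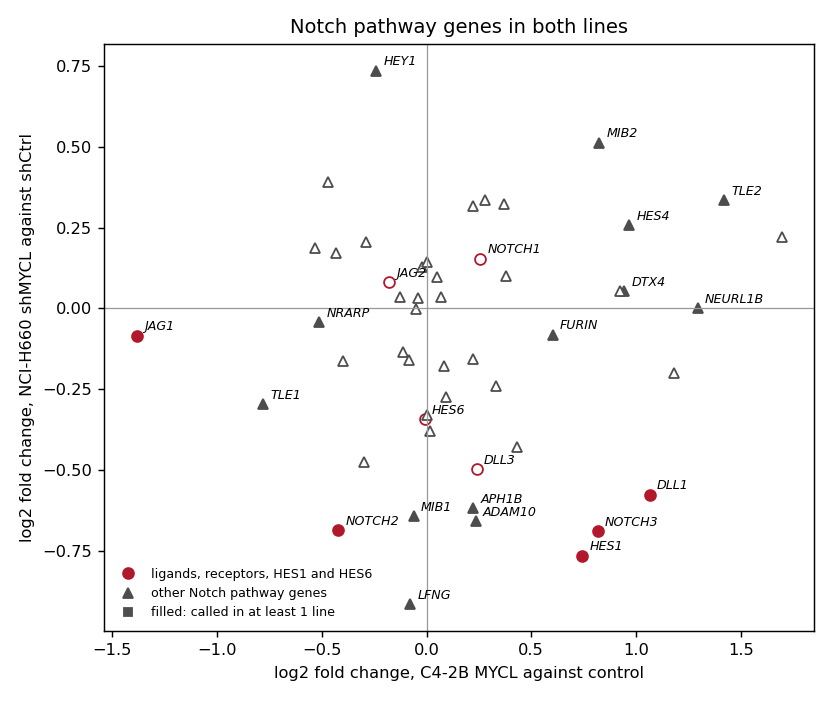
Log2 fold change in C4-2B with MYCL (horizontal) against that in NCI-H660 with shMYCL (vertical) for the 51 pathway genes and members tested in both lines; red circles are the ligands, receptors, HES1 and HES6, grey triangles the other pathway genes, and filled symbols are called in at least 1 line. HES1 and NOTCH3 sit at the lower right, JAG1 at the far left near 0 on the vertical axis, and HEY1 at the top left.

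Genes with the profile most like that of 3 members were found from centred log2 CPM over the 8 libraries and 19605 genes, as the smallest root mean square difference. For DLL3 these were RAB11FIP4 (0.0543), PRMT2 (0.0783), RRAGC (0.0803), DNAJB2 (0.0961) and RNF5 (0.0974). MRGBP (0.0674), UCKL1 (0.0759), SEMA4F (0.0776), VCF2 (0.0883) and PTTG1IP (0.0884) were closest to HES6. The genes nearest to HES1 were farther away, with EFNB1 at 0.103, STBD1 at 0.128, SMIM14 at 0.129, C14orf39 at 0.138 and ENSG00000260917 at 0.146. None of these 15 genes is in the Notch pathway list.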

How the data were processed

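Poly(A) RNA of 8 libraries from 2 prostate cancer cell lines was sequenced by the authors as paired-end reads. Per the labels the build was hg38; the aligner and counter are not given in the sources used here. The authors deposited estimated counts per gene without normalization (34.4% of non-zero values are not whole, and they were rounded here). They also deposited TPM values, described as counts divided by gene length and scaled per library. TPM was given for 65535 genes, all 10 members among them, against 78691 in the count table. The effect of the genes without TPM on TPM levels was not tested.

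The lines were fitted separately with edgeR 4.0.16 (R 4.3.3), using TMM factors, filterByExpr and the quasi-likelihood test, adjusted over all genes; the control lines and the interaction used 1 fit of 4 groups. Standard errors came from the fold change and F. CPM used TMM factors over all 8 libraries. The biological coefficient of variation was 0.083, 0.097 and 0.093 in C4-2B, NCI-H660 and all groups. TPM values were tested as log2(TPM + 1) or log2(TPM + 0.1) in limma 3.58.1 for genes at 1 TPM or more in 2 libraries, and counts also in DESeq2 1.42.0. Scripts were tested on simulated data. Replicates of a group differed beyond sampling noise. Same-numbered replicates showed no sign of deviating together (correlations 0.026 and 0.021 over 19605 genes), so they were not paired in the main fits. These correlations weight all genes alike and cannot exclude a shared batch.

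Genes named are the 10 members, MYCL, up to 5 called pathway genes at each end per line and proneural factors past the filter. The 5 most alike profiles of DLL3, HES6 and HES1 are named too. FURIN, RBPJ, FAM120B, NOTCH2NLA, the values of single markers, and the names and values between lines of pathway genes were added after values were seen. The members and lists were chosen with earlier results of these data known. Alternatives were other normalization, filters, thresholds, fits and left-out libraries; centring TPM on the median and summing NOTCH2 with NOTCH2NL were chosen after seeing the data. Positions came from GENCODE 44 (61458 count-table identifiers found) and promoters from RefSeq. Some genes are not reported here and were left out of the marker and proneural lists.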

Additional observations from a re-analysis of the deposited data

Results flagged for a closer look

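The effect of more against less MYCL differed between C4-2B and NCI-H660 in edgeR's interaction test for 2 of the 10 members and 12 of 51 other pathway genes tested, beside 17.9% of all 19605 genes. Line, vector, direction and size of the MYCL change differ together in this test and cannot be told apart. For the members, the difference (C4-2B minus NCI-H660, log2) was -1.47 for JAG1 and -1.11 for NOTCH2. Among the other pathway genes it was negative for TLE1 (-1.08, adjusted p = 0.00937), LFNG (-0.99, adjusted p = 0.00185) and MIB1 (-0.71, adjusted p = 0.00509). It was positive for TLE2 (1.75, adjusted p = 3.82e-04), MIB2 (1.33, adjusted p = 0.00372), NEURL1B (1.29, adjusted p = 7.94e-05), HES4 (1.22, adjusted p = 0.00309) and DTX4 (1.00, adjusted p = 0.0169). TLE1 fell with MYCL in C4-2B (-0.78) and was at -0.30 after knockdown, while LFNG and MIB1 were at -0.078 and -0.061 in C4-2B and fell after knockdown. MIB2 rose both with MYCL in C4-2B and after knockdown in NCI-H660. TLE2, NEURL1B, HES4 and DTX4 rose in C4-2B and were at 0.34, 0.0014, 0.26 and 0.054 after knockdown, where none was called. DTX3 (1.90), CIR1 (0.62), ADAM17 (0.53) and EP300 (-0.56) had a called difference and were called in neither line alone.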

How the results depend on the processing

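Over the alternatives run, the members' own values kept their direction and side of the threshold in 122 of 132 cases with MYCL in C4-2B, in 136 of 150 after knockdown, in 138 of 149 between control lines and in 164 of 179 for the difference between lines. Causes of the changes were not tested, other than where the threshold or the number of genes was itself altered. Depth limits DLL1 and DLL4 in C4-2B, at 26 or fewer counts per library.

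With the replicate number as a block, 2 members rose and 1 fell in C4-2B, and 4 fell after knockdown. Between lines 7 were higher and 2 lower, and 2 differed in their MYCL effect. The block changed no member's call, and whether the numbers pair the samples is not known.

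In C4-2B with MYCL, limma on log2(TPM + 1) and on log2(TPM + 0.1) each called 1 member higher and 2 lower, and 3 other pathway genes higher and 5 lower. Unfiltered TPM called 0 members higher, 2 pathway genes higher and 1940 genes in all, and centred TPM called 1 pathway gene lower. With no minimum fold change 2 members were lower, 10 pathway genes higher and 6 lower, and 5895 genes were called. A minimum of 1 left 0 members higher, 2 pathway genes higher, 0 lower and 1411 genes. One fit of all 4 groups called 4 members higher, DLL1 and DLL4 added, with DLL4 let in by its NCI-H660 counts. Leaving out a library gave 1 to 2 members lower, 3 to 8 pathway genes higher and 1 to 3 lower. HES6 ranged from -0.10 to 0.089, the higher value without C4-2B MYCL replicate 1.

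After knockdown, DESeq2 called 1 pathway gene higher. Limma on log2(TPM + 1) and on log2(TPM + 0.1) called 2 members lower and 1 pathway gene higher, with 1702 and 1600 genes in all. Unfiltered TPM called 0 members, 0 pathway genes higher, 0 lower, 0 proneural factors and 1 gene in all. Centred TPM called 1 pathway gene higher and 1692 genes. With no minimum fold change 4 pathway genes were higher and 4204 genes were called. A minimum of 1 left 0 members lower, 0 pathway genes higher, 0 lower and 1022 genes. Leaving out a library gave 1 to 4 pathway genes higher and 2 to 5 lower. JAG2 ranged from -0.030 (without shCtrl replicate 1) to 0.21, and JAG1 from -0.22 to 0.079 (without shCtrl replicate 2).

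Between control lines, no filter on low counts gave 2 proneural factors called in place of 1, and a minimum of 10 counts in every library left 0 proneural factors and 8512 genes called. TPM in limma, with either pseudocount or unfiltered, called 1 member lower, and 2, 2 and 1 pathway genes lower. Centred TPM called 19 pathway genes higher and turned NOTCH1 to -0.039. A minimum of 1 left 4 members higher, 1 lower and 3 pathway genes lower.

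For the difference between lines, log2(TPM + 0.1) called 7 pathway genes, unfiltered TPM 3 and a minimum of 1 left 6, with 1898 genes called in unfiltered TPM and 1666 at a minimum of 1. On log2(TPM + 1), filtered or not, DLL1 turned to -0.35, DLL4 to -0.24 and NOTCH3 to -0.018, and on centred TPM DLL1 to -0.26 and DLL4 to -0.15. Leaving out a library gave NOTCH3 from -0.13 to 0.41, HES1 from -0.15 to 0.092 and JAG2 from -0.23 to 0.046, none of them called.

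With CPM in place of TPM, which does not correct for gene length, 2 members kept their rank in C4-2B control and in shCtrl and 3 in C4-2B MYCL and in shMYCL. The HES6 to HES1 ratio of shMYCL became 3.15, the DLL1 share of ligands 47.7% in shCtrl and 38.7% in shMYCL, and the JAG1 share 24.6%, 11.7%, 3.57% and 4.09% in C4-2B control, C4-2B MYCL, shCtrl and shMYCL. In the same order the DLL3 share became 11.8%, 17.3%, 10.6% and 9.08% (from 26.4%, 34.7%, 20.4% and 18.2% on TPM) and the JAG2 share 62.6%, 68.1%, 36.8% and 47.1%. The equal JAG2 means of the C4-2B groups thus held on TPM and not on CPM. Summed ligands were 83.4 CPM in C4-2B control and 229 CPM in shCtrl, against 22.6 and 112 TPM.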
